A study of Mus musculus with 18 samples.

Results

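The genes described here are 40 interferon-stimulated genes, chosen by symbol and read from the FPKM table (fragments per kilobase, a level corrected for gene length and library size) of each library. They fall into a type I class of 26 genes and an interferon-gamma class of 14, out of 25696 gene symbols listed over all tables, and each of the 40 has 1 entry in every table. The study measured mouse RNA in 18 libraries that form 6 groups of 3. WT iWAT and NFIA-Tg iWAT are inguinal white adipose tissue from mice without and with a transgene named for NFIA, the transcription factor nuclear factor I A. The other 4 groups are adipocyte cultures grown from the inguinal stromal-vascular fraction, WT and NFIA-Tg, each at day 0 and at day 7 of differentiation. The day 7 cultures had been induced with IBMX, dexamethasone and indomethacin together with rosiglitazone, T3 and insulin, and then kept on the last 3 of these agents. The sources used here do not give the promoter of the transgene, the age and strain of the mice or whether animals or cultures were pooled.

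Interferons are cytokines that warn cells of infection. The type I interferons act through the receptor of IFNAR1 and IFNAR2, and a transcription factor complex that holds STAT2 and IRF9 then binds the interferon-stimulated response element (ISRE). Interferon-gamma acts through IFNGR1 and IFNGR2, and its targets carry the gamma-activated site (GAS). Many targets answer to both cytokines, so the class of a gene names the cytokine it is best known for, not the one that acted in these samples. In adipose tissue, adipocytes, their progenitors and resident immune cells can all make and sense interferons.

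The letters of both elements were looked for in the 250 bases before each gene's start in RefSeq's promoters (build GRCm38.p6), because these genes moved together within groups of libraries. ISRE was searched as GAAA, 2 bases of any kind and GAAA again, on both strands, and GAS as TTCNNNGAA, which reads the same on both strands, and overlapping matches were kept. A promoter entry was found for 31 of the 40 genes, with none matched for Oas2, Usp18, Mx1, Mx2, Gbp6, Iigp1, Parp9, Parp14 and Zbp1. ISRE letters were found in 15 of the 31 genes and GAS letters in 8, beside 3.46% and 8.13% of all 27025 genes with a promoter. By class, ISRE letters were found in 8 of 19 type I genes and 7 of 12 interferon-gamma genes, and GAS letters in 3 of 19 and 5 of 12. A match describes the sequence and is not a measured binding site. The 8 windows below are the 150 bases before the start, 5′ to 3′ on the gene's strand, of genes that are named again later. Capitals mark the matches.
Isg15 (chr4:156200819-156200968, minus strand): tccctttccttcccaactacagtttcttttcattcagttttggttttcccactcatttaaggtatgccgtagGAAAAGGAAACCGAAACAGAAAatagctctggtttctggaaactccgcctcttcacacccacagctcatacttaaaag
Ifit1 (chr19:34640739-34640888, plus strand): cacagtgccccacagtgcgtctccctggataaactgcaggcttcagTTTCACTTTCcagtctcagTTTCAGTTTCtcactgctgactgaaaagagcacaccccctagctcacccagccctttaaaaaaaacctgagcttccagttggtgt
Oas1a (chr5:120907526-120907675, minus strand): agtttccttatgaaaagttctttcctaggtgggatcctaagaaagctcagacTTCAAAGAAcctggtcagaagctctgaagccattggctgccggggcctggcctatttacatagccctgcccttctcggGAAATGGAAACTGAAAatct
Bst2 (chr8:71537473-71537622, minus strand): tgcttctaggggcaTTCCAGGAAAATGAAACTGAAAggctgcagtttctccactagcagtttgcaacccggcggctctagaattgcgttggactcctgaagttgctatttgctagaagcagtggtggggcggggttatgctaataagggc
Gbp2 (chr3:142620513-142620662, plus strand): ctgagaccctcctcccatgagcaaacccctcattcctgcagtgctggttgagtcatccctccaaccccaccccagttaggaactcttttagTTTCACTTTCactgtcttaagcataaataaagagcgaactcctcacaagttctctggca
Igtp (chr11:58199406-58199555, plus strand): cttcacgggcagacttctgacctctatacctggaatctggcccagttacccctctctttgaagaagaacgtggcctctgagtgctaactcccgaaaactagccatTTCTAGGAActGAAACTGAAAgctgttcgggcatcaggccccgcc
Irgm2 (chr11:58214827-58214976, plus strand): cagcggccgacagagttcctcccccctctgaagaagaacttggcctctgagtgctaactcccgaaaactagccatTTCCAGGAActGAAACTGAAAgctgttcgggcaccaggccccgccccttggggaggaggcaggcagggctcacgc
Irf1 (chr11:53769864-53770013, plus strand): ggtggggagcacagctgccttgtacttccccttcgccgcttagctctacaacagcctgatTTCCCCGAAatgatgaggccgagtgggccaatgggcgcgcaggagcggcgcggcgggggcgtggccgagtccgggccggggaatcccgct

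The Isg15 window holds 3 overlapping ISRE matches in 1 run, and the Ifit1 window holds 2 separate ones on the other strand. Oas1a has 2 overlapping ISRE matches close to the start and 1 GAS match further upstream. In Bst2 the GAS match overlaps the first of 2 ISRE matches. The neighbouring genes Igtp and Irgm2 on chromosome 11 both carry a GAS match and, 2 bases on, the ISRE letters GAAACTGAAA, which also occur in Oas1a and Bst2. Gbp2 has ISRE letters alone and Irf1 GAS letters alone. Of the 31 genes with a promoter entry, 13 had neither. These were 10 type I genes and 3 interferon-gamma genes, Ubd, Psmb9 and Tap1. The windows of Psmb9 and Tap1, which lie head to head on chromosome 17, overlap.

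The cultures held 16772594 to 28625625 reads per library. The depth of the iWAT libraries is unknown, since their values did not give reads. Libraries of a group correlated at 0.988 to 0.998 (Pearson's r over all genes, log2 scale), and nothing says that they come from separate animals or cultures, so p-values measure the spread between these samples only. Nfia was 3.73 to 4.19 FPKM in WT iWAT against 99.6 to 166 in NFIA-Tg iWAT, and 6.30 to 6.51 against 11.3 to 12.5 at day 0. At day 7 it went against the labels, with 12 to 13 FPKM in the libraries labelled WT and 6.44 to 7.32 in those labelled NFIA-Tg (adjusted p = 3.34e-08, limma). Every result below that uses day 7 rests on these labels. Exchanging them would turn the sign of the genotype difference at day 7, and would change both sizes and members in the results on differentiation and in its difference between genotypes. Of the 9 adipocyte markers tested in the cultures, 9 rose from day 0 to day 7 in either genotype.

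In several groups, 1 library was the highest or the lowest for most of the interferon-stimulated genes. NFIA-Tg day 0 replicate 1 was the highest of its 3 libraries for 39 of 40 genes, beside 22.7% of all genes tested, at a median of 1.74 times the other 2. Mx1, a GTPase that blocks viral replication, was at 18.1 FPKM in that library and at 3.05 and 2.97 in the other 2. WT day 0 replicate 2 was likewise highest for 39 of 40 genes (33.3% of all genes), at a median of 1.33 times the others, and NFIA-Tg day 7 replicate 2 for 39 of 40 (28.2% of all genes), at 1.24 times. Both classes took part: in each of these 3 libraries all 26 type I genes and 13 of the 14 interferon-gamma genes were highest. In the WT day 7 libraries the spread was smaller, with replicate 3 highest for 34 genes at a median of 1.07 times. In WT iWAT, replicate 1 was the lowest for 29 of 39 genes (43.5% of all genes), at a median of 0.78 times the other 2. Results that rest on day 0 are given below with all libraries and again without NFIA-Tg day 0 replicate 1 and WT day 0 replicate 2.

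**Figure D1:**
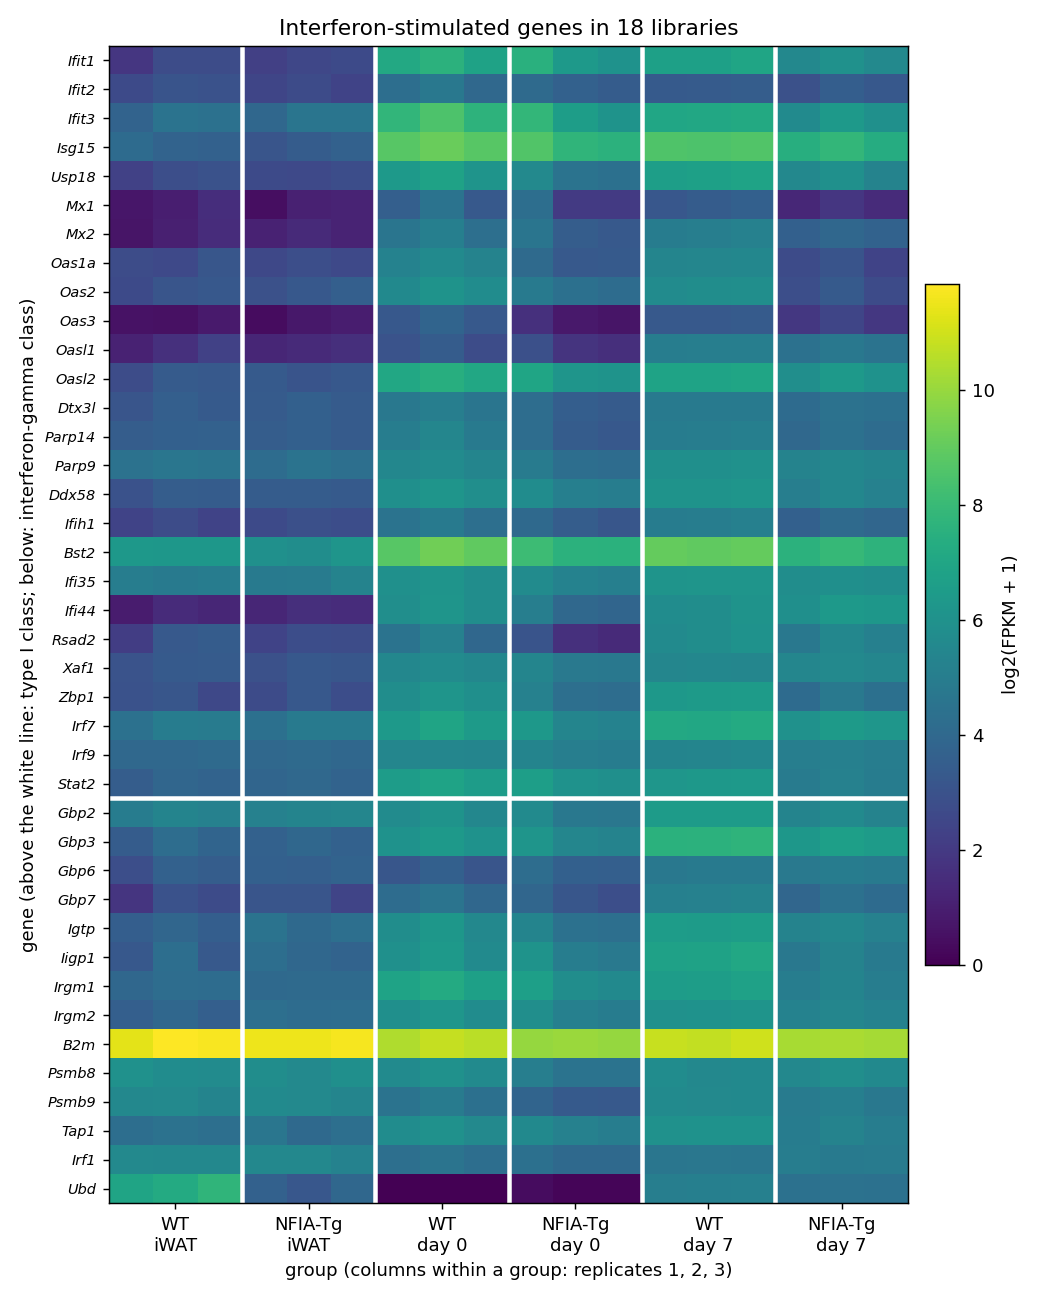
Level of the 40 genes in each library as log2(FPKM + 1), with genes as rows by class and family and the 3 replicates of each group as columns. B2m is the brightest row throughout, Ubd is near 0 at day 0, and NFIA-Tg day 0 replicate 1 is brighter than its 2 neighbours for 39 of 40 genes.

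By summed level, these 26 type I genes were lower in tissue than in WT culture. The 26 genes summed to 285, 333 and 332 FPKM in WT iWAT and to 267, 305 and 319 FPKM in NFIA-Tg iWAT, so that the genotypes overlapped. At day 0 the sums were 2231, 3028 and 2204 FPKM in WT against 1870, 1057 and 944 FPKM in NFIA-Tg. At day 7 they were 2281, 2280 and 2462 FPKM in WT against 1051, 1379 and 1111 FPKM in NFIA-Tg. In both pairs of culture groups each WT library lay above each NFIA-Tg library. Tissue and culture tables were made separately, so values across them are set side by side without a test. All 26 type I genes were higher in every WT culture library, at either day, than in any WT iWAT library, with a median ratio of group means of 6.76 at day 0 and 7.51 at day 7. Isg15, the ubiquitin-like protein that is attached to other proteins in infected cells, and Bst2, which tethers budding virus to the cell, were the most abundant type I genes of the cultures. A separate list of 30 other type I targets went the other way at day 0, with sums of 4292 to 6204 FPKM in WT iWAT and 3317 to 3923 FPKM in WT day 0. Its sums in WT day 7, 4103 to 4296 FPKM, overlapped those of WT iWAT.

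The 14 genes of the interferon-gamma class were more evenly shared between tissue and culture. B2m, the invariant chain of MHC class I, was its most abundant gene, at 2590 to 3640 FPKM in iWAT and 996 to 1998 FPKM in the cultures, and is left out of the sums. The other 13 genes summed to 386, 450 and 477 FPKM in WT iWAT and to 326, 296 and 306 FPKM in NFIA-Tg iWAT, and these groups did not overlap, with Ubd giving 120 to 211 FPKM of the WT sums and 8.31 to 14.6 FPKM of the NFIA-Tg sums. At day 0 the sums were 573, 745 and 519 FPKM in WT against 530, 310 and 280 FPKM in NFIA-Tg, and here the groups overlapped. At day 7 they were 912, 926 and 990 FPKM in WT against 446, 543 and 458 FPKM in NFIA-Tg. Among the 14 genes, 8 were higher in every WT day 0 library than in any WT iWAT library and 4 were lower, namely Irf1, Psmb9, B2m and Ubd. A separate list of 22 other interferon-gamma targets was higher in tissue by its sum. It gave 1741 to 2184 FPKM in WT iWAT, 99.1 to 152 FPKM in WT day 0 and 115 to 133 FPKM in WT day 7.

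**Figure D2:**
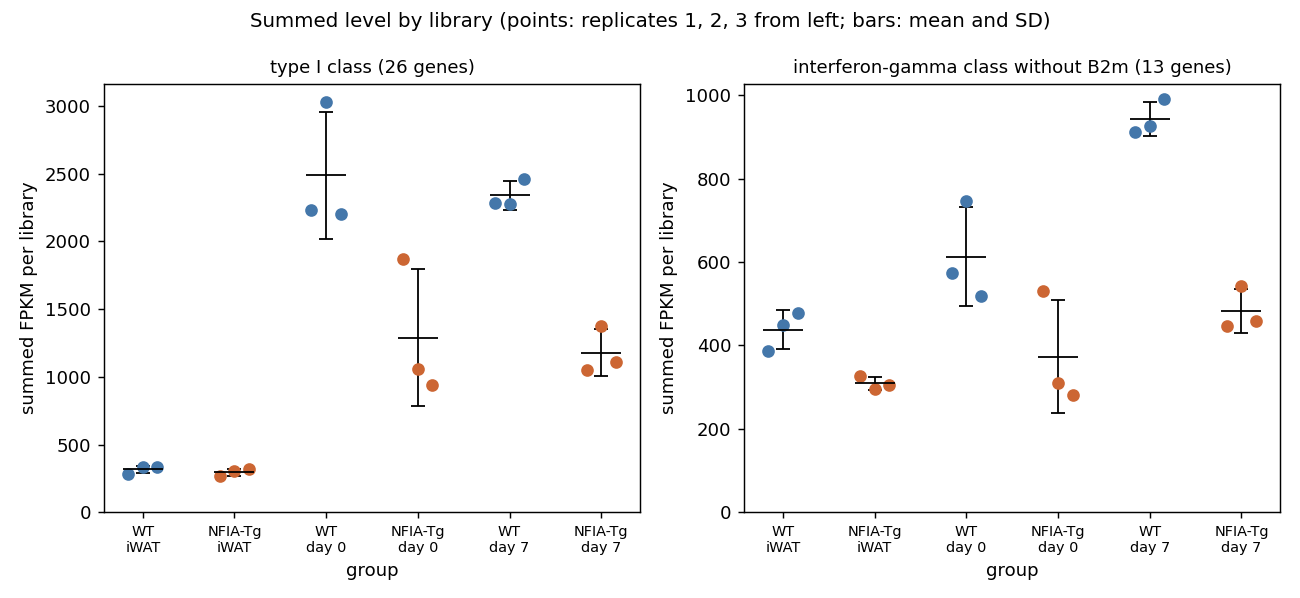
Summed FPKM per library (y axis) by group (x axis) for the 26 type I genes and for the 13 interferon-gamma genes other than B2m, with points for replicates 1 to 3 and bars for the mean and SD. WT cultures lie above NFIA-Tg cultures in the type I panel, with NFIA-Tg day 0 replicate 1 at 1870, and both iWAT groups lie between 267 and 333 there.

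In iWAT, 3 interferon-gamma genes differed between WT and NFIA-Tg and no type I gene was called. Genes were tested with limma on log2(FPKM + 1) and called at an adjusted p under 0.05, and 11.4% of the 12396 genes tested in iWAT were called. Limma called 0 of the 25 type I genes tested, and 3 were under 0.05 before adjustment. Oas3 was not tested, since it was under 1 FPKM in all 6 libraries. The log2 differences of the type I genes lay between -0.44 and 0.25. Of the 14 interferon-gamma genes, 1 was lower (5.44% of all genes) and 2 were higher (5.96% of all genes). The median log2 difference of the 39 genes tested was -0.00, beside 0.05 over all genes.

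Ubd, which encodes the ubiquitin-like modifier FAT10, was at 120, 147 and 211 FPKM in WT iWAT and at 11.8, 8.31 and 14.6 FPKM in NFIA-Tg iWAT. The NFIA-Tg libraries were all far below the WT libraries, and Ubd fell by 3.67 on the log2 scale (SE 0.24, adjusted p = 0.000274, limma), a 13.8-fold lower mean. It was called under each of the other settings tried and without any single library. The 2 genes that were higher encode immunity-related GTPases, which act on the vacuoles of intracellular parasites. Igtp was at 10.8, 13.8 and 10.5 FPKM in WT and at 21.9, 15.4 and 18.9 FPKM in NFIA-Tg, a log2 difference of 0.63 (SE 0.16, adjusted p = 0.0384). Irgm2 was at 11.1, 14.3 and 11.1 FPKM in WT and at 18.8, 17.1 and 17.5 FPKM in NFIA-Tg, a log2 difference of 0.52 (SE 0.12, adjusted p = 0.0331). For both genes each NFIA-Tg library was above each WT library. Both calls were lost when replicate 1 or 3 of either genotype was left out, and that of Irgm2 also without replicate 2 of NFIA-Tg. They were lost as well with a replicate block (adjusted p = 0.0692 for Igtp and 0.0556 for Irgm2) and with no filter on low values (0.0805 and 0.0582). Their family member Irgm1 was at 14.5, 17.5 and 17.1 FPKM in WT and at 15.7, 16.2 and 16.1 FPKM in NFIA-Tg, with overlapping groups.

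The 2 type I genes with the highest level in iWAT were Bst2 and Ifi35. Bst2 was at 78.5, 76.4 and 75.7 FPKM in WT and at 60.8, 55.6 and 71.2 FPKM in NFIA-Tg. The NFIA-Tg libraries were lower without overlap, but the difference was not called. Ifi35, which encodes a partner of NMI, was at 31.8, 28.0 and 29.8 FPKM in WT and at 28.8, 29.2 and 37.9 FPKM in NFIA-Tg, with overlapping groups. Without WT replicate 1, the low library, 1 type I gene was called, Rsad2, named here after its values were seen. Rsad2, which encodes the antiviral enzyme viperin, was at 3.44, 8.89 and 9.96 FPKM in WT and at 4.18, 6.04 and 5.62 FPKM in NFIA-Tg. Its log2 difference was -0.33 with all libraries and -0.74 (adjusted p = 0.0391, limma) without that one. Over the 39 genes, 35 had overlapping groups in iWAT, beside 34.4% of all genes tested whose groups did not overlap.

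At day 0, before differentiation, interferon-stimulated genes of both classes were lower in the NFIA-Tg cultures. Of the 40 genes, 35 were lower (34.9% of all 12553 genes) and 2 were higher (28.1%), where 63% of all genes were called in either direction. Of the 2 higher genes, Ubd was under 1 FPKM in every day 0 library and was tested only through its day 7 level. In the type I class 24 of 26 were lower, Ifit1 and Mx1 being the exceptions, with a median log2 difference of -1.01. In the interferon-gamma class 11 of 14 were lower, with a median of -0.66, beside -0.03 over all genes. The groups did not overlap for 26 of the 40 genes, beside 70.2% of all genes, and in 13 of the 14 overlapping genes the overlap was due to NFIA-Tg replicate 1 alone, Gbp6 being the exception. Without that library and WT replicate 2, 38 were lower and 2 higher, the median log2 difference was -1.20 for type I and -0.83 for interferon-gamma, and Ifit1, Mx1 and Iigp1 were called too. These are bulk cultures, where fewer cells that make a transcript and less transcript per cell cannot be told apart.

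The oligoadenylate synthetases, which sense double-stranded RNA and activate RNase L, had the lowest adjusted p among type I genes. Oas3 was at 8.65, 13.2 and 8.73 FPKM in WT and at 2.13, 0.743 and 0.607 FPKM in NFIA-Tg, and fell by 2.42 on the log2 scale (SE 0.24, adjusted p = 2.30e-06, limma). Oas1a was at 36.7, 50.3 and 38.0 FPKM in WT and at 15.8, 8.76 and 9.31 FPKM in NFIA-Tg, and fell by 1.83 (SE 0.21, adjusted p = 7.84e-06). In both, NFIA-Tg replicate 1 was the nearest to WT and still under each WT library. All 5 members of the family were lower, and Oas1a has the close copies Oas1b and Oas1g, so its level is uncertain where the counting could split reads between them.

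Bst2 was at 433, 607 and 494 FPKM in WT day 0 and at 274, 194 and 189 FPKM in NFIA-Tg day 0, and fell by 1.23 on the log2 scale (SE 0.15, adjusted p = 1.34e-05). Parp9 and Dtx3l encode a complex that binds damaged chromatin, and Parp14 is a related ADP-ribosyltransferase. Parp14 was at 31.7, 42.0 and 28.5 FPKM in WT and at 17.9, 9.96 and 8.66 FPKM in NFIA-Tg, and fell by 1.46 (SE 0.21, adjusted p = 6.99e-05). Parp9 was at 43.6, 51.0 and 40.2 FPKM in WT and at 29.2, 18.1 and 16.9 FPKM in NFIA-Tg, and fell by 1.07 (SE 0.16, adjusted p = 7.35e-05). For these 3 genes the NFIA-Tg libraries stayed under all WT libraries, replicate 1 included. The IFIT genes, whose proteins bind foreign RNA, were less separated: Ifit2 and Ifit3 were lower with overlapping groups, and Ifit1 was at 139, 193 and 111 FPKM in WT and at 180, 84.1 and 65.3 FPKM in NFIA-Tg, so that NFIA-Tg replicate 1 was above 2 of the 3 WT libraries.

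In the interferon-gamma class, antigen processing led. Psmb8 and Psmb9 encode catalytic subunits of the immunoproteasome, which cuts proteins into peptides for MHC class I. Psmb8 was at 49.6, 63.3 and 50.0 FPKM in WT day 0 and at 31.9, 21.4 and 21.8 FPKM in NFIA-Tg day 0, and fell by 1.10 on the log2 scale (SE 0.14, adjusted p = 2.49e-05). Psmb9 was at 21.8, 29.3 and 19.5 FPKM in WT and at 12.9, 9.30 and 8.76 FPKM in NFIA-Tg, and fell by 1.11 (SE 0.15, adjusted p = 3.65e-05). B2m was at 1361, 1797 and 1564 FPKM in WT and at 998, 1067 and 996 FPKM in NFIA-Tg, and fell by 0.62 (SE 0.09, adjusted p = 8.01e-05). All 3 had groups that did not overlap, and B2m was not highest in NFIA-Tg replicate 1. Tap1, which carries those peptides into the endoplasmic reticulum, also fell, with overlapping groups.

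Of the immunity-related GTPases, Igtp was at 54.7, 75.4 and 45.4 FPKM in WT day 0 and 39.7, 20.1 and 18.7 FPKM in NFIA-Tg day 0, and fell by 1.18 on the log2 scale (SE 0.24, adjusted p = 0.000847). Irgm1 was at 115, 151 and 106 FPKM in WT and at 101, 55.0 and 47.7 FPKM in NFIA-Tg, and fell by 0.92 (SE 0.22, adjusted p = 0.00306). In both, NFIA-Tg replicate 1 came within a few FPKM of the lowest WT library. The 2 genes higher in NFIA-Tg were Gbp6 and Ubd. Gbp6, a guanylate-binding protein, was at 7.90, 11.2 and 7.81 FPKM in WT and at 17.6, 11.2 and 10.9 FPKM in NFIA-Tg, a log2 difference of 0.50 (SE 0.16, adjusted p = 0.0158). Its groups overlapped and the call was lost when replicate 1 or 3 of WT, or replicate 1 of NFIA-Tg, was left out. Ubd had 0 reads in each WT library and 6, 3 and 3 reads in the NFIA-Tg libraries. The last 2 of these are at the limit of 3 reads that a count of 0 allows, so no fold is given. It passed the filter on low values only through the day 7 libraries, so its call at day 0 rests on a few reads.

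At day 7 most of the genes were again lower in NFIA-Tg. Of the 40 genes, 32 were lower in the libraries labelled NFIA-Tg (51.1% of all genes) and 1 was higher (29.8%), where 80.9% of all genes were called. In the type I class 21 of 26 were lower, with a median log2 difference of -1.0, and Oasl1, Ifit2, Ifi44, Rsad2 and Xaf1 were not called. In the interferon-gamma class 11 of 14 were lower, with a median of -0.83, and Gbp6 and Psmb8 were not called. The median over all genes was -0.17, and scaling by the median of ratios moved it to -0.06 and that of the 40 genes from -0.93 to -0.79. The groups did not overlap for 35 of the 40 genes, beside 81.2% of all genes. Day 0 and day 7 libraries are different samples fitted in 1 model, and share the estimate of the spread.

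Oas2 was at 52.0, 55.0 and 56.6 FPKM in WT day 7 and at 6.06, 9.31 and 5.48 FPKM in NFIA-Tg day 7, and fell by 2.83 on the log2 scale (SE 0.20, adjusted p = 2.97e-08, limma). Oas1a was at 41.1, 41.7 and 42.9 FPKM in WT and at 5.57, 7.37 and 4.17 FPKM in NFIA-Tg, and fell by 2.71 (SE 0.21, adjusted p = 7.58e-08). Their means were 7.85-fold and 7.35-fold lower. Zbp1, a sensor of Z-form nucleic acid that can start cell death, was at 77.8, 87.5 and 88.3 FPKM in WT and at 16.5, 26.4 and 19.7 FPKM in NFIA-Tg, and fell by 1.99 (SE 0.22, adjusted p = 3.31e-06). Bst2 was at 517, 484 and 529 FPKM in WT and at 195, 240 and 198 FPKM in NFIA-Tg, and fell by 1.27 (SE 0.15, adjusted p = 4.19e-06). Stat2, a subunit of the type I transcription factor complex, was at 74.2, 77.1 and 81.2 FPKM in WT and at 29.2, 36.2 and 30.6 FPKM in NFIA-Tg, and fell by 1.26 (SE 0.15, adjusted p = 7.45e-06). In all 5 genes the NFIA-Tg libraries lay under the WT libraries by a gap wider than either group's range, and replicate 2 was the highest of the NFIA-Tg libraries.

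The interferon-gamma genes at day 7 were led by Ubd, at 32.8, 33.3 and 34.8 FPKM in WT and at 20.4, 21.1 and 20.6 FPKM in NFIA-Tg, which fell by 0.67 on the log2 scale (SE 0.06, adjusted p = 3.63e-07, limma). Irgm1 was at 91.5, 96.1 and 108 FPKM in WT and at 31.0, 39.2 and 31.6 FPKM in NFIA-Tg, and fell by 1.52 (SE 0.22, adjusted p = 3.83e-05). The effector GTPase Iigp1 was at 108, 113 and 136 FPKM in WT and at 25.9, 38.7 and 28.7 FPKM in NFIA-Tg, and fell by 1.92 (SE 0.29, adjusted p = 4.64e-05). None of these groups overlapped, and reads can be split between Iigp1 and other genes of its family. B2m was at 1846, 1721 and 1998 FPKM in WT and at 1228, 1274 and 1207 FPKM in NFIA-Tg, and fell by 0.58 (SE 0.09, adjusted p = 6.69e-05). Tap1 was at 61.4, 64.3 and 63.8 FPKM in WT and at 30.6, 37.7 and 31.1 FPKM in NFIA-Tg, and fell by 0.92 (SE 0.14, adjusted p = 6.88e-05). Irf1, the interferon regulatory factor whose promoter carries the GAS letters alone, was the gene that was higher, at 24.0, 25.2 and 23.8 FPKM in WT and at 30.9, 28.2 and 28.9 FPKM in NFIA-Tg, a log2 difference of 0.26 (SE 0.08, adjusted p = 0.0129). Its groups did not overlap, and the call was lost without NFIA-Tg day 7 replicate 1.

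**Figure D3:**
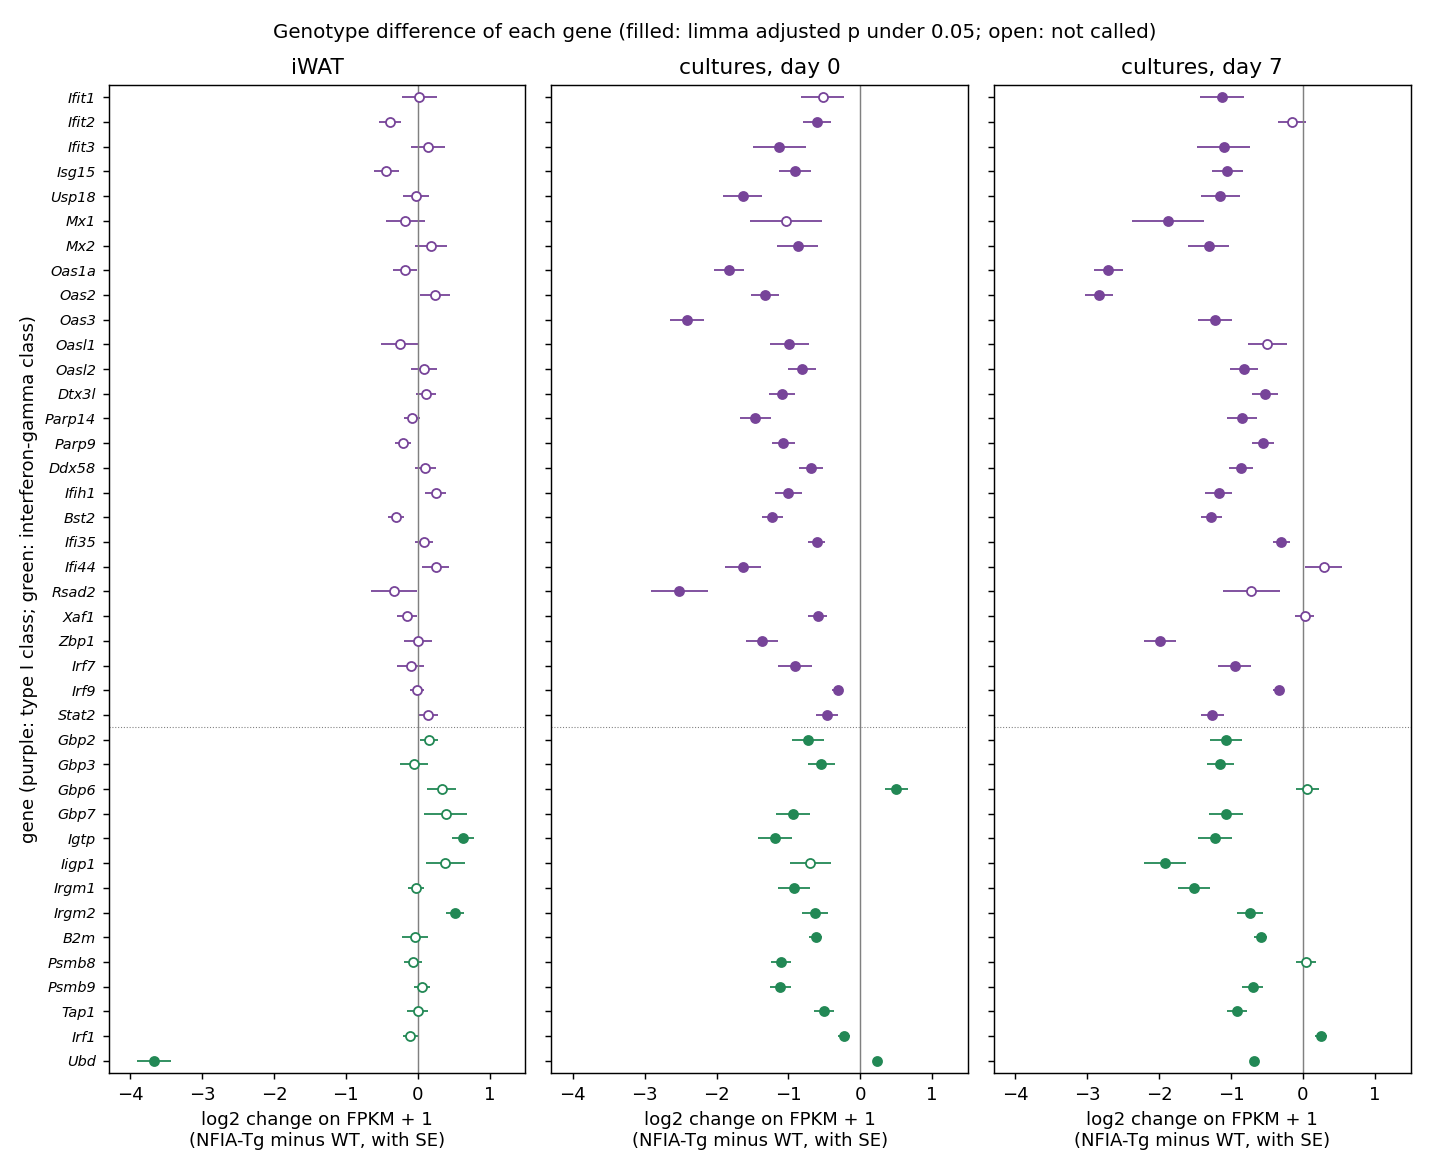
Difference between NFIA-Tg and WT of each gene on the log2(FPKM + 1) scale (x axis, with SE) in iWAT, at day 0 and at day 7, with genes as rows by class and filled points for those called. In iWAT the points lie around 0 except Ubd at -3.67, and in both culture panels most points lie left of 0. The called points to the right in the culture panels are Gbp6 and Ubd at day 0 and Irf1 at day 7, beside open points at day 7.

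Transcripts for the interferons themselves were near or below detection. None of the 17 interferon genes listed reached a group mean of 1 FPKM anywhere, and none was tested. In the cultures, the interferon genes together had 12, 7 and 14 reads in WT day 0 and 1, 7 and 4 in NFIA-Tg day 0, then 12, 11 and 13 in WT day 7 and 2, 5 and 1 in NFIA-Tg day 7. Ifnb1, which encodes interferon-beta, had 8, 5 and 9 of those reads in WT day 7 and 1, 4 and 0 in NFIA-Tg day 7. Ifng had 1 read in all 12 culture libraries and was listed at 0 in iWAT. The receptors were expressed in every group. Ifnar1 was at 8.61 to 10.8 FPKM in WT iWAT and 8.57 to 10.2 FPKM in NFIA-Tg iWAT, and at 8.82 to 9.42 FPKM in WT day 7 and 9.14 to 9.49 FPKM in NFIA-Tg day 7.

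Receptors and transducers were called in both directions, at shares near those of all genes in iWAT and at day 0. In iWAT 1 of 17 was higher (5.96% of all genes) and 2 were lower (5.44%): Irf2 rose by 0.57 on the log2 scale, while Irf8 fell by 0.90 and the receptor chain Ifnar2 by 0.52. At day 0, 5 of 16 were higher (28.1% of all genes) and 5 lower (34.9%). Ifngr1, the binding chain of the interferon-gamma receptor, was at 34.9, 37.3 and 37.0 FPKM in WT day 0 and 86.7, 92.6 and 88.3 FPKM in NFIA-Tg day 0, a log2 difference of 1.27 (adjusted p = 2.47e-08), opposite to most of the interferon-stimulated genes. At day 7, 2 of 16 were higher (29.8% of all genes) and 10 lower (51.1%), among them the feedback inhibitor Socs3, which fell by 1.59, and Stat3, which fell by 0.75.

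Of sensors and other targets, more were lower than higher in the NFIA-Tg cultures. The lower share of all genes was 34.9% at day 0 and 51.1% at day 7, and the higher share 28.1% and 29.8%. Of 16 genes of nucleic acid sensing, 7 were lower and 3 higher at day 0, near the shares of all genes, and 13 were lower and 2 higher at day 7, where Tmem173, which encodes the adaptor STING, fell by 1.45. Of 29 other type I targets, 22 were lower and 3 higher at day 0 and 26 were lower and 1 higher at day 7, and 0 were called in iWAT by limma. The whole list of 30 nonetheless summed to 3317 to 3923 FPKM in WT day 0 and 3482 to 4190 FPKM in NFIA-Tg day 0, with overlap. At day 7 it summed to 4103 to 4296 FPKM in WT and 2203 to 2536 FPKM in NFIA-Tg. Of 11 other interferon-gamma targets tested in culture, 5 were lower and 4 higher at day 0, which does not stand apart from all genes, and 7 were lower and 1 higher at day 7. In iWAT, 6 of 19 were lower (5.44% of all genes), among them the MHC class II genes H2-Aa, H2-Eb1 and H2-Ab1 and their activator Ciita, with log2 differences of -0.77, -0.85, -0.88 and -0.91, and 1 was higher. Beside them, the 6 dendritic cell markers summed to 11.5 to 13.5 FPKM in WT iWAT and 7.67 to 9.60 FPKM in NFIA-Tg iWAT, without overlap and with 0 of 2 tested called by limma and 1 under 0.05 before adjustment. The 5 B cell markers summed to 4.33 to 16.0 FPKM in WT iWAT and 1.43 to 6.40 FPKM in NFIA-Tg iWAT, with overlap. The part of these cells in the MHC class II values was not tested. The MHC class I list of 16 had 10 lower and 0 higher at day 0, 10 lower and 4 higher at day 7, and 0 called in iWAT by limma. At day 7 the list summed to 2053 to 2198 FPKM in WT and to 2331 to 2593 FPKM in NFIA-Tg, without overlap. In this list H2-D1 was at 70.7, 88.4 and 71.5 FPKM in WT day 0 and 26.2, 28.1 and 25.4 FPKM in NFIA-Tg day 0, a log2 difference of -1.49. The 3 culture libraries that stood apart also did so here: of the 29 other type I targets, NFIA-Tg day 0 replicate 1 was highest for 26, WT day 0 replicate 2 for 27 and NFIA-Tg day 7 replicate 2 for 27.

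Relative to its constitutive counterpart, the immunoproteasome showed a difference between genotypes at day 0 in 3 of 3 subunit pairs. The ratio of Psmb8 to Psmb5 was 1.41 ± 0.19 in WT day 0 and 0.73 ± 0.15 in NFIA-Tg day 0 (SD, n = 3). Psmb9 to Psmb6 gave 0.30 ± 0.06 and 0.14 ± 0.03, and Psmb10 to Psmb7 gave 0.33 ± 0.04 and 0.18 ± 0.05. In each pair the lowest WT library was above the highest NFIA-Tg library. At day 7 each pair was again lower in NFIA-Tg without overlap, but the change from day 0 differed between the pairs. The gap was narrow for Psmb10 to Psmb7, with 0.154 in the lowest WT library and 0.151 in the highest NFIA-Tg library. Psmb8 to Psmb5 was 0.64 ± 0.05 in WT and 0.50 ± 0.07 in NFIA-Tg, and Psmb10 to Psmb7 was 0.16 ± 0.01 and 0.14 ± 0.01, all under their day 0 means. Psmb9 to Psmb6 was above its day 0 means, at 0.41 ± 0.02 in WT and 0.28 ± 0.04 in NFIA-Tg. In iWAT the genotypes overlapped for all 3 pairs, as with 0.62 ± 0.07 and 0.59 ± 0.11 for Psmb8 to Psmb5. These ratios were not tested.

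**Figure D4:**
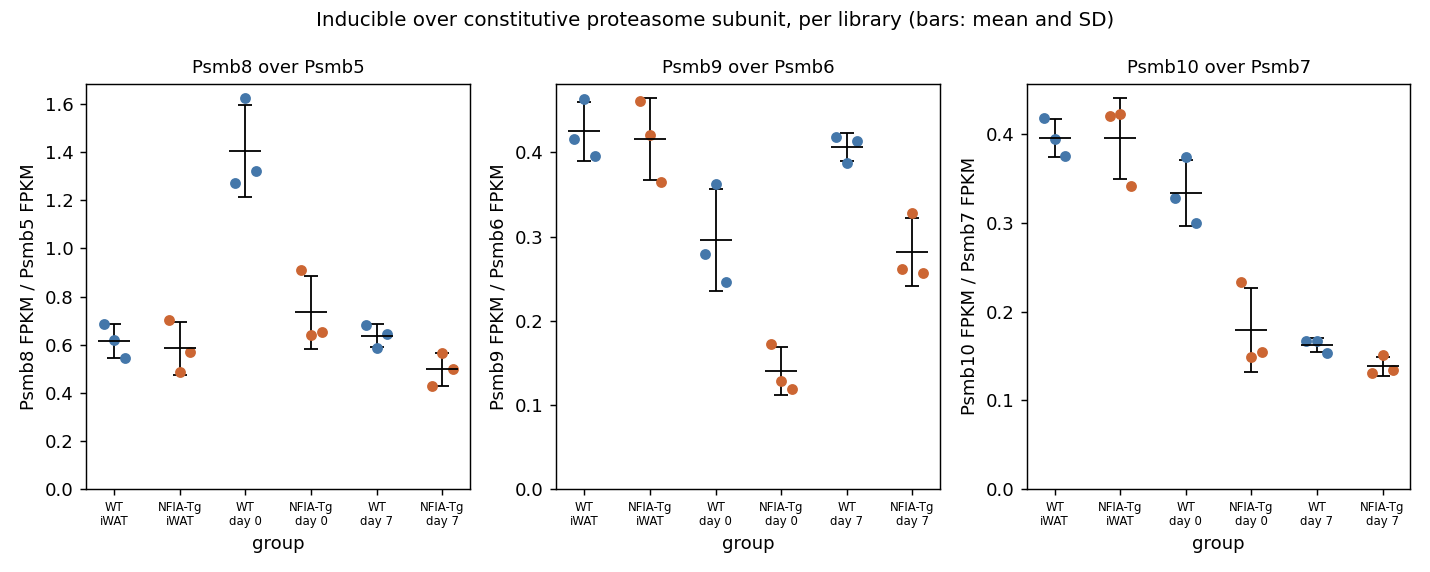
Ratio of the FPKM of an inducible proteasome subunit to that of its constitutive counterpart in each library (y axis) by group (x axis), with points for replicates and bars for the mean and SD. WT day 0 lies above NFIA-Tg day 0 in all 3 panels, and the iWAT groups overlap.

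The difference between genotypes itself differed between tissue and culture for most of the genes. In the test of iWAT against day 0, 22 of 40 genes were higher (23.4% of all genes) and 1 was lower (16.8%), where 40.3% of all genes were called. Higher means here that NFIA-Tg minus WT was less negative, or more positive, in iWAT. All 15 type I genes called were of this kind, among them Oas3 with a log2 difference of 2.44 (SE 0.35, adjusted p = 0.000278, limma) and Oas1a with 1.65 (SE 0.29, adjusted p = 0.00113). Oas3 was under 1 FPKM in every iWAT library and entered this test only through day 0. Its value therefore restates its day 0 difference and tells little about tissue. In the interferon-gamma class 7 were higher, among them Psmb9 with 1.17 and Igtp with 1.81, and Ubd was lower with -3.90. Ubd in turn was under 1 FPKM in every day 0 library and entered only through iWAT. The count rose to 30 without the 2 day 0 libraries that stood apart, lay between 17 and 34 when single libraries were left out, and was 34 without NFIA-Tg day 0 replicate 1.

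In the test of iWAT against day 7, 31 of 40 genes were higher (35.8% of all genes) and 2 were lower (18.5%), where 54.3% were called. The type I class had 21 of 26 higher, led by Oas2 with a log2 difference of 3.08 (SE 0.29, adjusted p = 3.70e-06, limma) and Oas1a with 2.53 (SE 0.24, adjusted p = 4.34e-06). The interferon-gamma class had 10 of 14 higher, among them Igtp with 1.85, Irgm1 with 1.49 and Irgm2 with 1.25, and Ubd and Irf1 were lower with -2.99 and -0.36. Ubd was thus lower in NFIA-Tg in both tissue and day 7 culture, and by more in tissue. Scaling by the median of ratios moved the all-gene median of this test from 0.18 to 0.00, and 26 genes were then higher and 3 lower. Over all genes it changed the split of calls from 4690 higher and 2430 lower to 3322 and 3321. For iWAT against day 0 the split over all genes went from 3095 and 2220 to 2406 and 2611, and 17 of the 40 genes were then higher.

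During differentiation of the WT cultures, 10 of 14 interferon-gamma genes and 5 of 26 type I genes rose; the difference between the classes was not tested. Of the 40 genes, 15 were higher at day 7 (46.2% of all genes) and 2 were lower (35.4%), where 81.6% of all genes were called. In the interferon-gamma class 0 were lower and 4 were not called, with a median log2 change of 0.71. In the type I class 2 were lower and 19 were not called, with a median of 0.00, beside 0.09 over all genes. The separate lists did not show such a rise. Of 11 other interferon-gamma targets tested, 4 were higher and 5 lower, with a median of -0.34. Of 29 other type I targets, 7 were higher and 8 lower, with a median of -0.06. With median-of-ratios scaling 10 of the 40 genes were higher and 3 lower, and 8 of the 14 interferon-gamma genes were higher. Without the 2 day 0 libraries that stood apart 21 were higher and 3 lower, of which 12 and 0 in the interferon-gamma class.

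Ubd was undetected in WT day 0, with 0 reads in each library, and was at 32.8, 33.3 and 34.8 FPKM at day 7. Set against a floor of 3 reads per library it was at least 226-fold higher at day 7. The 4 guanylate-binding proteins among the 40 genes, large GTPases that attack pathogen vacuoles, all rose. Gbp6 went from 7.90, 11.2 and 7.81 FPKM to 25.3, 27.8 and 28.5 FPKM, a log2 change of 1.52 (SE 0.16, adjusted p = 1.52e-06, limma). Gbp3 went from 65.4, 84.4 and 64.8 FPKM to 188, 196 and 206 FPKM, a log2 change of 1.46 (SE 0.19, adjusted p = 1.06e-05). Gbp7 went from 17.1, 22.8 and 14.5 FPKM to 34.6, 36.1 and 38.3 FPKM, a log2 change of 0.99 (SE 0.24, adjusted p = 0.00184). In these 3 genes each day 7 library was above each day 0 library. Gbp2 rose too, and reads can be split between near-identical copies within the family. Psmb9 went from 21.8, 29.3 and 19.5 FPKM to 49.4, 46.3 and 48.6 FPKM, a log2 change of 1.02 (SE 0.15, adjusted p = 3.44e-05), whereas Psmb8 was not called.

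Of the type I genes in WT, Oasl1, an OAS-like protein that restrains IRF7 translation, went from 7.12, 9.98 and 5.69 FPKM at day 0 to 31.3, 32.5 and 32.8 FPKM at day 7, a log2 change of 1.98 (SE 0.27, adjusted p = 1.64e-05, limma). Rsad2 went from 22, 35.9 and 14.6 FPKM to 50.3, 54.3 and 64.7 FPKM, a log2 change of 1.27 (SE 0.40, adjusted p = 0.010). Ifit2 went the other way, from 18.4, 25.4 and 15.1 FPKM to 9.17, 9.37 and 10.2 FPKM, and fell by 0.94 (SE 0.20, adjusted p = 0.000764). None of these groups overlapped. Irf7, the master factor of type I interferon genes, went from 79.7, 118 and 85.3 FPKM to 142, 133 and 152 FPKM, a log2 change of 0.61 (SE 0.23, adjusted p = 0.0282). Parp9 went from 43.6, 51.0 and 40.2 FPKM to 58.6, 57.7 and 62.7 FPKM, a log2 change of 0.41 (SE 0.16, adjusted p = 0.0288). Both were separated between the days, but their calls were lost when replicate 1 or 3 of either WT culture group was left out.

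In the NFIA-Tg cultures type I genes were called in both directions over the 7 days, as were all genes. Of the 40 genes, 20 were higher (45.7% of all genes) and 8 lower (41.5%), where 87.2% of all genes were called. In the type I class 11 of 26 were higher and 7 lower, a higher share near that of all genes, with a median log2 change of -0.03, and in the interferon-gamma class 9 were higher and 1 lower, with a median of 0.71. Of 11 other interferon-gamma targets tested, 3 were higher and 7 lower, with a median of -0.66. Of 29 other type I targets, 5 were higher and 14 lower, with a median of -0.42. Without the 2 day 0 libraries that stood apart, 24 of the 40 genes were higher and 6 lower. Irgm2 and Mx2, not called at -0.03 each with all libraries, then had log2 changes of 0.24 and 0.37 and were called as higher.

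Rsad2 went from 7.51, 2.1 and 1.66 FPKM in NFIA-Tg day 0 to 25.4, 43.7 and 34.4 FPKM in NFIA-Tg day 7, a log2 change of 3.07 (SE 0.40, adjusted p = 8.67e-06, limma). Oasl1 went from 6.30, 2.47 and 2.03 FPKM to 20.4, 26 and 21.8 FPKM, a log2 change of 2.47 (SE 0.27, adjusted p = 1.50e-06). Ifi44 went from 32.3, 14.9 and 13.5 FPKM to 58.2, 80.7 and 74.6 FPKM, a log2 change of 1.86 (SE 0.25, adjusted p = 1.39e-05). These 3 genes rose without overlap even with the high NFIA-Tg day 0 replicate 1. Oas2 fell in the same cultures, from 28.7, 19.5 and 16.9 FPKM to 6.06, 9.31 and 5.48 FPKM, by 1.51 on the log2 scale (SE 0.20, adjusted p = 8.72e-06). Stat2 went from 97.0, 64.0 and 58.8 FPKM to 29.2, 36.2 and 30.6 FPKM, and fell by 1.14 (SE 0.15, adjusted p = 1.30e-05).

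Among the interferon-gamma genes of the NFIA-Tg cultures, Psmb9 went from 12.9, 9.30 and 8.76 FPKM to 29.0, 33.2 and 26 FPKM, a log2 change of 1.44 (SE 0.15, adjusted p = 1.04e-06, limma). Irf1 went from 19.4, 15.6 and 15.7 FPKM to 30.9, 28.2 and 28.9 FPKM, a log2 change of 0.77 (SE 0.08, adjusted p = 1.86e-06). Psmb8 went from 31.9, 21.4 and 21.8 FPKM to 45.7, 56.1 and 48.6 FPKM, a log2 change of 0.99 (SE 0.14, adjusted p = 2.23e-05). Each of these 3 rose without overlap. Gbp6 rose by 1.08 to 26.8, 30.6 and 28.0 FPKM, which overlapped WT day 7. Ubd rose from 6, 3 and 3 reads to 20.4, 21.1 and 20.6 FPKM.

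The change over differentiation differed between genotypes for 11 of the 40 genes, 6 higher (29.5% of all genes) and 5 lower (42.6%) in NFIA-Tg, where 72.1% of all genes were called. Higher in the type I class were Ifi44 with a log2 difference of 1.93 (SE 0.36, adjusted p = 0.000366, limma), Rsad2 with 1.80, Oas3 with 1.20 and Xaf1 with 0.62. Xaf1, which encodes an antagonist of the apoptosis inhibitor XIAP, was at 43.7, 50.5 and 43.9 FPKM in WT day 0 and 40.5, 26.8 and 25.4 FPKM in NFIA-Tg day 0. At day 7 it was at 42.7, 43.7 and 41.8 FPKM in WT and at 42.1, 47.2 and 41.7 FPKM in NFIA-Tg, with overlapping groups. Lower in the type I class were Oas2 with -1.50 (SE 0.28, adjusted p = 0.000342), Oas1a with -0.88 and Stat2 with -0.79. The OAS family thus held both directions: Oas3 was at 8.77, 8.92 and 9.39 FPKM in WT day 7 and 2.73, 4.64 and 2.79 FPKM in NFIA-Tg day 7, a narrower gap than at day 0, and Oas1a and Oas2 had a wider one.

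In the interferon-gamma class Psmb8 and Irf1 were higher, with log2 differences of 1.15 (SE 0.20, adjusted p = 0.000225, limma) and 0.49 (SE 0.12, adjusted p = 0.00276). Iigp1 and Ubd were lower, with -1.22 (SE 0.41, adjusted p = 0.0166) and -0.91 (SE 0.09, adjusted p = 9.57e-07), the value of Ubd depending on the pseudocount since WT day 0 had 0 reads. Iigp1 was at 59.5, 82.0 and 49.9 FPKM in WT day 0 and 66.9, 31.8 and 26.2 FPKM in NFIA-Tg day 0, with overlapping groups. The count of 11 was 22 without the 2 day 0 libraries that stood apart, 19 without NFIA-Tg day 0 replicate 1 alone and 17 on recovered reads. All 11 genes were called without any single library.

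**Figure D5:**
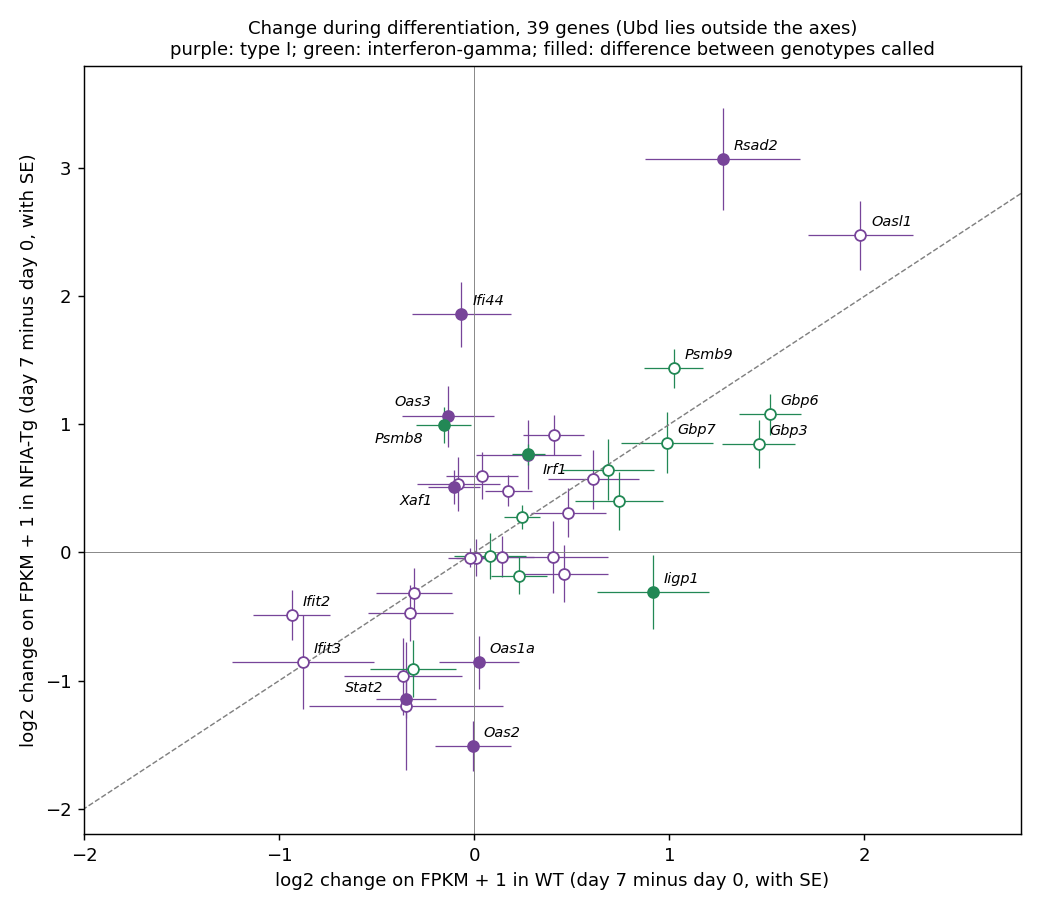
Change from day 0 to day 7 of 39 genes on the log2(FPKM + 1) scale in WT (x axis) and in NFIA-Tg (y axis), with SE, the dashed line marking equal change and filled points marking genes whose change differed between genotypes. Ifi44, Rsad2, Oas3 and Psmb8 lie above the line, Oas2, Oas1a, Stat2 and Iigp1 below it, and most interferon-gamma genes lie in the upper right.

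Over the 4 culture groups, the highest mean was in WT day 7 for 22 genes, in WT day 0 for 15 and in NFIA-Tg day 7 for 3, namely Irf1, Gbp6 and Ifi44, by the day 7 labels as given. The lowest mean was in NFIA-Tg day 0 for 20 genes, in NFIA-Tg day 7 for 18 and in WT day 0 for 2, Gbp6 and Ubd. Many neighbours in these orders overlapped, as did Psmb8 between WT day 7, at 52.5, 44.5 and 48.1 FPKM, and NFIA-Tg day 7.

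Other cell features moved with the genotypes, and their part in these results was not tested. Their counts stand beside 28.1% of all genes higher and 34.9% lower at day 0, 29.8% and 51.1% at day 7, and 5.96% and 5.44% in iWAT. The 10 proliferation genes summed to 242 to 249 FPKM in WT day 0 and 82.1 to 89.2 FPKM in NFIA-Tg day 0, and to 466 to 485 FPKM in WT day 7 and 161 to 173 FPKM in NFIA-Tg day 7, with 10 of 10 lower at both days. In iWAT they summed to 15.7 to 21.0 FPKM in WT and to 7.37 to 10.1 FPKM in NFIA-Tg, with 2 of 7 tested lower and 7 under 0.05 before adjustment. The 10 adipocyte markers summed to 152 to 177 FPKM in WT day 0 and 552 to 605 FPKM in NFIA-Tg day 0, with 6 of 9 higher. Of 9 stromal progenitor markers tested, 4 were higher and 1 lower at day 0, and 1 was higher and 8 lower at day 7, where they summed to 1072 to 1209 FPKM in WT against 243 to 330 FPKM in NFIA-Tg. Immune cells left little trace in the cultures: the 13 macrophage markers summed to between 5.11 and 15.3 FPKM in every library, with Adgre1 and Ptprc at 0 in all WT libraries and 3 of the 4 tested higher in NFIA-Tg at day 0, and the 11 T and NK cell markers to at most 0.181 FPKM. In iWAT the macrophage markers summed to 574 to 732 FPKM in WT against 503 to 610 FPKM in NFIA-Tg, with 2 of 13 lower and 0 higher. The 11 T and NK cell markers summed to 11.8 to 16.7 FPKM in WT iWAT and 5.17 to 12.6 FPKM in NFIA-Tg iWAT, with overlap. Of the 4 tested, 1 was lower and 0 higher, and 2 were under 0.05 before adjustment. The endothelial list summed to 527 to 639 FPKM in WT iWAT and 364 to 446 FPKM in NFIA-Tg iWAT, with 4 of 8 lower.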

How the data were processed

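The deposited tables give 1 FPKM value per gene and library, per the file headers. STAR 2.7.8a and StringTie 2.1.1 stand in the submitters' processing notes beside build mm9, and per the labels' protocols the libraries were made with a stranded mRNA kit. The sources used here do not give the annotation, strand setting or treatment of multiply mapped reads. In the cultures FPKM times length gave whole reads for 100% of values (tolerance 0.01), and these reads served as an alternative with limma-voom. Differences were tested two-sided with limma 3.58.1 (R 4.3.3, eBayes with trend) on log2(FPKM + 1), over genes at 1 FPKM or more in at least 3 fitted libraries, with Benjamini-Hochberg adjustment over all of them. The pseudocount of 1 understates changes of low genes. iWAT (6 libraries) and cultures (12) were fitted separately, and the tests of tissue against culture used both tables. FPKM ratios and levels were computed from the deposited values. The fit was tested on simulated data. Members and lists were chosen with earlier results of these data known. Values in every sample are given for the 5 called genes of each class with the smallest adjusted p in a comparison, or, with fewer than 2 called, the 2 most abundant. Of other genes, those called in a list with the smallest adjusted p are named, at most 4 per list and comparison, and receptors. Alternatives were the pseudocount, the filter, median-of-ratios scaling, a replicate block and each library left out.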

Additional observations from a re-analysis of the deposited data

Results flagged for a closer look

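Differences of an effect between 2 settings, each by its own test in limma, are collected here. The change over differentiation differed between NFIA-Tg and WT for 11 genes: it was larger in NFIA-Tg for Ifi44 (1.93 on the log2 scale), Rsad2 (1.80), Oas3 (1.20), Psmb8 (1.15), Xaf1 (0.62) and Irf1 (0.49), and smaller for Oas2 (-1.50), Iigp1 (-1.22), Ubd (-0.91), Oas1a (-0.88) and Stat2 (-0.79). These counts and values use the day 7 labels as given, against which Nfia ran, and exchanged labels would change members and sizes. The genotype difference in iWAT set against day 0 was called for 23 genes. The 5 of each class with the smallest adjusted p were Oas3 (2.44), Ifi44 (1.88), Oas1a (1.65), Oas2 (1.57) and Parp14 (1.38), and Ubd (-3.90), Igtp (1.81), Psmb9 (1.17), Irgm2 (1.15) and Psmb8 (1.03). Of these, Oas3 was under 1 FPKM in every iWAT library and Ubd in every day 0 library, so each value restates the difference in the other setting. Set against day 7 it was called for 33 genes, led by Oas2 (3.08), Oas1a (2.53), Zbp1 (2.0), Ifih1 (1.42) and Stat2 (1.41), and by Ubd (-2.99), Igtp (1.85), Irgm1 (1.49), Irgm2 (1.25) and Gbp2 (1.23). Tissue and culture tables were made separately, so processing and sample type cannot be told apart in these tests.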

How the results depend on the processing

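In iWAT 3 genes were called, but 1 with no filter on low values and 1 with the replicate block, Ubd remaining in both, and 1 to 3 when single libraries were left out; the cause was not tested. Over all genes the iWAT calls went from 1413 to 934 with no filter, where 17295 genes were tested. The genotype by differentiation count of 11 was 17 on recovered reads, 22 in the setting chosen after seeing the data, which left out NFIA-Tg day 0 replicate 1 and WT day 0 replicate 2 together, and 11 to 19 without single libraries. The other counts stayed within 1.5 times under the planned settings: without single libraries the ranges were 30 to 39 at day 0, 29 to 35 at day 7, 12 to 24 and 23 to 28 for differentiation in WT and NFIA-Tg, and 17 to 34 and 29 to 33 for iWAT against day 0 and day 7. Irgm2 and Mx2 turned from -0.03 to 0.24 and 0.37 for differentiation in NFIA-Tg without both libraries, while their lowest values without a single library were -0.20 and -0.28. No called gene changed sign in any setting, and no other uncalled gene was called with the opposite sign. Sign changes of genes called in neither fit were not counted. Deviations from the group means correlated between same-numbered libraries at 0.01 to 0.11 in iWAT and -0.11 to 0.16 in the cultures. Between differently numbered libraries they correlated at -0.16 to 0.08 and -0.19 to 0.20. With 3 libraries per group these values cannot settle whether the numbers pair samples. With the replicate block the counts at day 0, at day 7, for differentiation in WT and NFIA-Tg and for genotype by differentiation were 37, 33, 17, 28 and 11, as without it, and those of the tissue tests were 22 and 32. Calls at day 0 that were lost without at least 1 library were those of Gbp2, Gbp3, Gbp6, Ifit2, Ifit3, Irf1, Mx2 and Stat2. iWAT depth is unknown, and Ubd and the interferon genes at day 0 are limited by counts of a few reads.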
